A study of Mus musculus with 6 samples.

Results

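The second day of a developmental series, from E11.5 to E12.5, was examined in GFP+ cells sorted from the dorsal spinal cord of mouse embryos, for every transcript cluster that names 1 gene. A transcript cluster is the set of array probes that read 1 locus. Of 23332 clusters, 14996 named 1 gene by the platform's annotation, and these stood for 14860 genes, since 135 genes had several clusters, of which the brightest on average was then taken. Both stages carried the same alleles, *Wnt1-cre* with the *Rosa26mTmG* reporter, and no other genotype or treatment was compared. In these embryos Cre is made under *Wnt1* control, so that cells of the dorsal neural tube and the neural crest, with their descendants, exchange membrane tdTomato for membrane GFP. RNA was hybridised to Affymetrix mouse exon arrays, with 2 arrays at E11.5 and 2 at E12.5 out of 6 arrays that also cover E10.5. Whether the 2 arrays of a stage hold RNA from different litters or pools is not given in the sources used here, so the p-values reflect only the spread among these arrays, which may be technical.

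The dorsal spinal cord makes its neurons in waves. Dividing progenitors next to the roof plate first give the early dorsal classes, among them the dI1 commissural neurons that carry *Lhx2* and *Lhx9*, and a later wave then gives large numbers of inhibitory (dILA) and excitatory (dILB) neurons of the dorsal horn. Inhibitory neurons are set apart by *Pax2* and by the enzymes and transporters for GABA and glycine, and newly made neurons of all classes then take on axons, adhesion molecules and the first parts of synapses.

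The tissue label was checked against its markers. *Pax3*, a transcription factor of the dorsal neural tube, had log2 signals of 8.71 and 9.27 at E11.5 against 8.75 and 9.13 at E12.5, and the neuronal genes *Tubb2b*, *Map2* and *Dcx* lay above 10 on all 4 arrays. A detection limit of 5.80 was taken from 839 clusters of olfactory, vomeronasal, trace amine and taste receptor genes. A mean signal above it was found for 6740 genes. Of the dorsal markers, *Lbx1* was below this limit on all 4 arrays. Of the markers of other cells, 14 of 100 measured entries were above that limit, none of them for floor plate (0 of 5) or dorsal root ganglion neurons (0 of 9). The median difference of each such list lay between -0.10 and 0.04. The arrays also carried a difference between replicate numbers. Across clusters, the E11.5 replicate 1 array correlated at 0.972 with E12.5 replicate 1 and at 0.967 with the other E11.5 array, and E11.5 replicate 2 correlated at 0.982 with E12.5 replicate 2. Taken on single arrays, the limit was 6.18 and 5.38 for the E11.5 arrays and 6.55 and 5.40 for the E12.5 arrays, higher on both replicate 1 arrays.

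No cluster passed the test between the stages. With limma and Benjamini-Hochberg adjustment over all clusters, 0 of 23332 reached an adjusted p under 0.05, the smallest adjusted p was 1, and 560 (2.40%) had an unadjusted p under 0.05. The same unadjusted threshold was met by 106 clusters higher at E12.5 (0.707% of those naming 1 gene) and by 78 lower (0.520%). A fit on clusters above the detection limit also called 0. An ordinary t-test without moderation called 1, an unnamed cluster with identical values within both stages, beside 659 at an unadjusted p under 0.05. An exact permutation test of 2 against 2 arrays cannot give a p below 0.333. Every difference below is therefore a measured value whose adjusted p missed the threshold. It is described by its standard error (SE) and by whether both arrays of one stage lay above both arrays of the other, here called groups that did not overlap. Where the mean of one stage lay below the detection limit, the difference is also given as a bound. For it, each array of that stage was set to the higher of its signal and the limit. Each bound, and each "at least" below, holds for the limit of 5.80 alone. Bounds with the single-array limits, which were higher on both replicate 1 arrays, were not computed.

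Among 14860 genes, 1264 (8.51%) were higher on both E12.5 arrays and 1767 (11.9%) were lower on both. Both shares are the background for each list count below. Among the 6740 genes above the detection limit the shares were 11.8% and 14.6%. This split depended on the scaling of the arrays, with 2385 genes higher and 1845 lower after quantile normalization, and 1785 higher and 1277 lower after centring each array on its median. Of the 8336 clusters that do not name 1 gene, 8.34% were higher on both E12.5 arrays and 16.2% lower. Most differences were small, with a median of -0.01 and 5th and 95th percentiles over genes of -0.36 and 0.36 on the log2 scale, against a median SE of 0.27. Only the largest differences ran mostly one way. Above the detection limit, 26 genes were higher by more than 1 on the log2 scale with groups that did not overlap, and 8 were lower by as much. Over all genes these counts were 35 and 8. At a size of 0.5 the counts above the limit were nearly even, with 151 higher and 152 lower. The limit was applied to the mean over both stages. Some of the 26, among them *Cdh8* and *AW551984*, therefore lay below it at E11.5, and *Aldh1a2*, among the 8, lay below it at E12.5. The differences on the replicate 1 and on the replicate 2 arrays correlated at 0.21 over genes and at 0.39 over genes above the limit, as a description over genes that share the arrays.

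**Figure D1:**
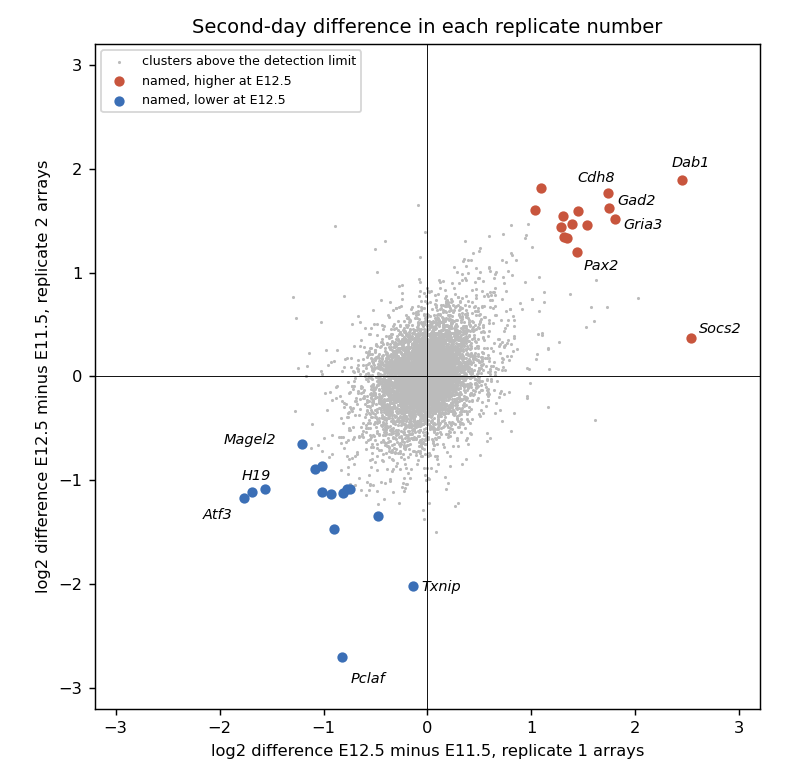
The log2 difference E12.5 minus E11.5 between the replicate 1 arrays (x axis) and the replicate 2 arrays (y axis), for clusters that name 1 gene above the detection limit (grey) and for the 15 named genes higher (red) and 15 lower (blue) at E12.5. Most named genes lie near the diagonal, whereas *Socs2* was 2.54 apart on the replicate 1 arrays and 0.37 on the replicate 2 arrays, and *Txnip* -0.14 and -2.02.

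The 15 genes with the largest higher signal at E12.5, among those above the detection limit with groups that did not overlap, were mostly genes of inhibitory neurons, adhesion molecules and synaptic proteins. These values chose the genes, so they are given as a description. Of the 15, 7 had an E11.5 replicate 1 signal below that array's own limit of 6.18 (*Dab1*, *Cdh8*, *Gria3*, *Ncam2*, *Cntn1*, *Slc6a5* and *AW551984*), and 0 were below the limit of E11.5 replicate 2. In bulk RNA of sorted cells, a larger share of cells of a type and more RNA per cell cannot be told apart.

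*Pax2*, the transcription factor of dorsal inhibitory neurons, had signals of 6.46 and 6.92 at E11.5 against 7.90 and 8.12 at E12.5. The groups did not overlap, and the difference was 1.32 ± 0.28 (SE), or 2.50-fold. *Gad2*, which encodes an enzyme that makes GABA from glutamate, gave 6.72 and 7.25 at E11.5 against 8.47 and 8.87 at E12.5, a difference of 1.69 ± 0.30. *Gad1*, the other such enzyme, gave 5.66 and 6.15 against 7.28 and 7.08, a difference of 1.28 ± 0.28. *Slc6a5*, the neuronal glycine transporter, was at 5.69 and 5.91 and then at 6.97 and 7.35. Its E11.5 mean lay just below the detection limit of 5.80, so by that limit the bound is 1.31, or 2.47-fold higher. *Abat*, whose product breaks GABA down, was at 7.0 and 7.63 and then at 8.30 and 9.17 (difference 1.42 ± 0.38). All 5 genes were thus higher on both E12.5 arrays, each by more than 1 on the log2 scale. In the list for GABA and glycine synthesis and transport, which also holds *Abat*, 6 of 10 measured genes (60%) were higher on both arrays and 0 lower. The shares of all genes were 8.51% and 11.9%. The 6 include *Gad2*, *Slc6a5* and *Abat*, which were chosen for these same values, so the share is a description and not separate evidence. *Slc32a1*, the vesicular transporter that loads GABA and glycine, was also higher but by less, at 6.09 and 5.76 against 6.58 and 6.12 (0.42 ± 0.28). The list's median difference was 0.32, with 0.36 on the replicate 1 arrays and 0.28 on the replicate 2 arrays, beside a median of -0.01 over all genes.

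Among the other named genes, *Esrrg*, an orphan nuclear receptor, gave 6.6 and 6.89 at E11.5 against 8.0 and 8.35 at E12.5 (1.43 ± 0.27). *Socs2*, which restrains cytokine receptor signalling, gave 6.45 and 8.19 against 8.99 and 8.56 (1.45 ± 0.55), so its groups were separated although most of the difference came from E11.5 replicate 1. *AW551984*, a gene known by its clone name, gave 5.0 and 5.54 against 6.32 and 6.88 (1.33 ± 0.32). With E11.5 below the limit of 5.80, it was higher by at least 0.80. On the replicate 1 arrays, both of its signals lay below those arrays' own limits of 6.18 and 6.55. The rest of the 15 belong to the adhesion, reelin, synaptic and Hox genes below.

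The transcription factors of dorsal inhibitory neurons were less uniform. Of 14 measured, 4 were higher on both arrays and 2 lower, against 8.51% and 11.9% of all genes, and the median was 0.13 (0.06 without E12.5 replicate 1). *Pax8* gave 6.39 and 6.49 at E11.5 against 6.81 and 7.61 at E12.5 (0.77 ± 0.33), and *Tfap2a* gave 6.81 and 7.43 against 7.52 and 7.97 (0.63 ± 0.32). Neither pair of groups overlapped. *Lhx1*, a LIM homeodomain factor of these neurons, gave 5.89 and 6.54 against 6.48 and 7.56, so that its groups overlapped at a difference of 0.81 ± 0.42. *Tfap2b* overlapped as well, at 8.46 and 8.76 against 8.74 and 9.25. *Lbx1*, which marks the classes that fill much of the dorsal horn, was below the detection limit on all 4 arrays, with a highest signal of 4.84.

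Excitatory dorsal genes gave a mixed picture. Of 16 measured, 4 (25%) were higher on both arrays and 1 (6.25%) lower, against 8.51% and 11.9% of all genes. The median was 0.12, with -0.08 without the E11.5 replicate 2 array and -0.04 without the E12.5 replicate 1 array. Between same-numbered arrays it was 0.03 for replicate 1 and 0.17 for replicate 2. *Nr4a2*, an orphan nuclear receptor, gave 7.67 and 8.87 at E11.5 against 9.40 and 9.53 at E12.5 (1.2 ± 0.41), and *Ebf2*, a helix-loop-helix factor of young neurons, gave 7.88 and 7.85 against 8.39 and 8.86 (0.76 ± 0.27). Both were separated between the stages. *Slc17a6*, the vesicular glutamate transporter of these neurons, overlapped at 9.21 and 8.88 against 9.04 and 9.34, a difference of 0.15 ± 0.27. *Isl1*, of the dI3 class, also overlapped, at 8.78 and 9.03 against 8.51 and 8.79.

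The dI1 genes ran the other way. *Lhx9* gave 8.83 and 8.77 at E11.5 against 7.82 and 7.66 at E12.5, a difference of -1.07 ± 0.24 or 2.09-fold lower. *Lhx2* gave 7.91 and 7.86 against 7.13 and 7.09 (-0.77 ± 0.24). Both genes were nearly equal on the arrays of a stage and did not overlap between stages. *Barhl2*, another dI1 factor, was lower on both arrays (-0.31 ± 0.25), while *Robo3*, the guidance receptor that lets commissural axons cross the midline, was at 8.27 and 7.96 against 8.17 and 7.95 and overlapped. Of the 6 measured genes of this list 3 (50%) were lower on both arrays and 0 higher, against 11.9% and 8.51% of all genes. The median was -0.31, with -0.48 without E12.5 replicate 1 and -0.13 without E12.5 replicate 2.

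**Figure D2:**
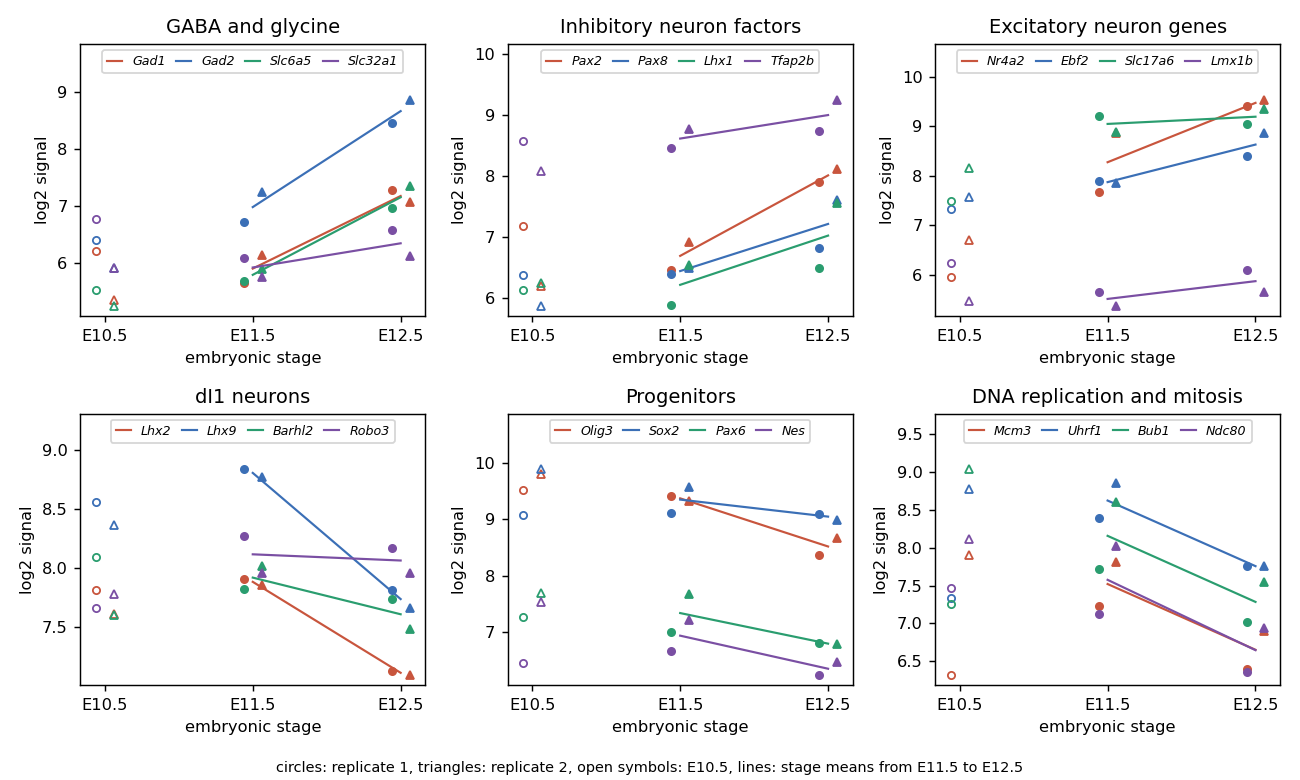
Log2 signal (y axis) of 24 list genes on all 6 arrays by embryonic stage (x axis), circles for replicate 1 and triangles for replicate 2, with lines joining the means of E11.5 and E12.5 and open symbols for E10.5. *Gad2*, *Gad1*, *Slc6a5* and *Pax2* stand higher on both E12.5 arrays, while *Lhx9*, *Lhx2*, *Olig3*, *Mcm3* and *Uhrf1* stand lower on both, and *Slc17a6* and *Robo3* overlap.

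Of 14 factors that mark the time of birth of spinal neurons across classes, 6 (42.9%) were higher on both arrays and 4 (28.6%) lower. The shares of all genes were 8.51% and 11.9%. The late nuclear factor I genes lay on the higher side and the early Onecut genes on the lower. *Nfib*, of the late wave, gave 7.47 and 8.42 at E11.5 against 8.84 and 9.22 at E12.5 (1.08 ± 0.37), and its second cluster had a difference of 1.39 ± 0.46. *Prox1*, *Nfix* and *Tcf4* were also higher on both arrays by 0.72, 0.54 and 0.53. *Nfia* overlapped, at 7.19 and 7.68 against 7.52 and 7.73. The early factors *Onecut2* and *Onecut1* had differences of -0.37 and -0.34, both with groups that did not overlap and an E12.5 mean below the limit (bounds of -0.34 and -0.07), and the second cluster of *Onecut1* had one of -0.10. *Zfhx3* and *Zfhx4*, of the middle window, also read lower on both arrays, at -0.46 and -0.23. *Neurod6*, a late helix-loop-helix factor, gave 3.22 and 3.80 against 5.07 and 7.49. Its difference of 2.77 ± 0.73 was the largest among genes of the lists, but its mean over the 4 arrays lay below the detection limit, its E12.5 arrays were far apart (SD 1.71) and its bound was 0.48.

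The 15 genes with the largest lower signal were more scattered in role: cell division (*Pclaf*, *Ccnd2*, *H1f2*, *Ndc80*), the AP-1 factors *Jun* and *Atf3*, the imprinted genes *H19* and *Magel2*, *Lhx9*, and others. *Pclaf*, a partner of the replication clamp, gave 8.50 and 9.09 at E11.5 against 7.68 and 6.40 at E12.5 (-1.76 ± 0.46). The replicate 1 arrays differed by -0.82 and the replicate 2 arrays by -2.70. *Ccnd2*, the D-type cyclin of dividing progenitors, gave 7.19 and 7.53 against 6.26 and 6.40 (-1.03 ± 0.26), and *H1f2*, a linker histone made in dividing cells, gave 6.40 and 6.24 against 5.39 and 5.39 (-0.93 ± 0.24). These groups did not overlap. Both E12.5 signals of *H1f2* lay below the limit of 5.80, so by that limit its bound is -0.52, or 1.44-fold lower. Of the 15, 7 had an E12.5 replicate 1 signal below that array's own limit of 6.55 (*Aldh1a2*, *Ccnd2*, *Jpt2*, *Col12a1*, *H1f2*, *Ndc80* and *Gpc3*), and 1, *H1f2*, was below the limit of E12.5 replicate 2. *Ndc80*, of the kinetochore, gave 7.13 and 8.03 against 6.35 and 6.94 (-0.93 ± 0.38). *Gpc3*, a heparan sulphate proteoglycan, gave 6.93 and 7.85 against 6.46 and 6.50, and *Col12a1*, a fibril-associated collagen, gave 7.27 and 8.07 against 6.46 and 6.95. *Txnip*, which binds thioredoxin, gave 9.36 and 10.04 against 9.23 and 8.02. Its groups were 0.14 apart at their closest. *Dusp16*, a phosphatase that acts on stress-activated kinases, gave 8.01 and 7.63 against 7.26 and 6.55, and *Jpt2*, a microtubule-associated protein, gave 7.59 and 8.41 against 6.51 and 7.52. *Lhx9*, *Atf3*, *Jun* and *Aldh1a2* are described with their lists.

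**Figure D3:**
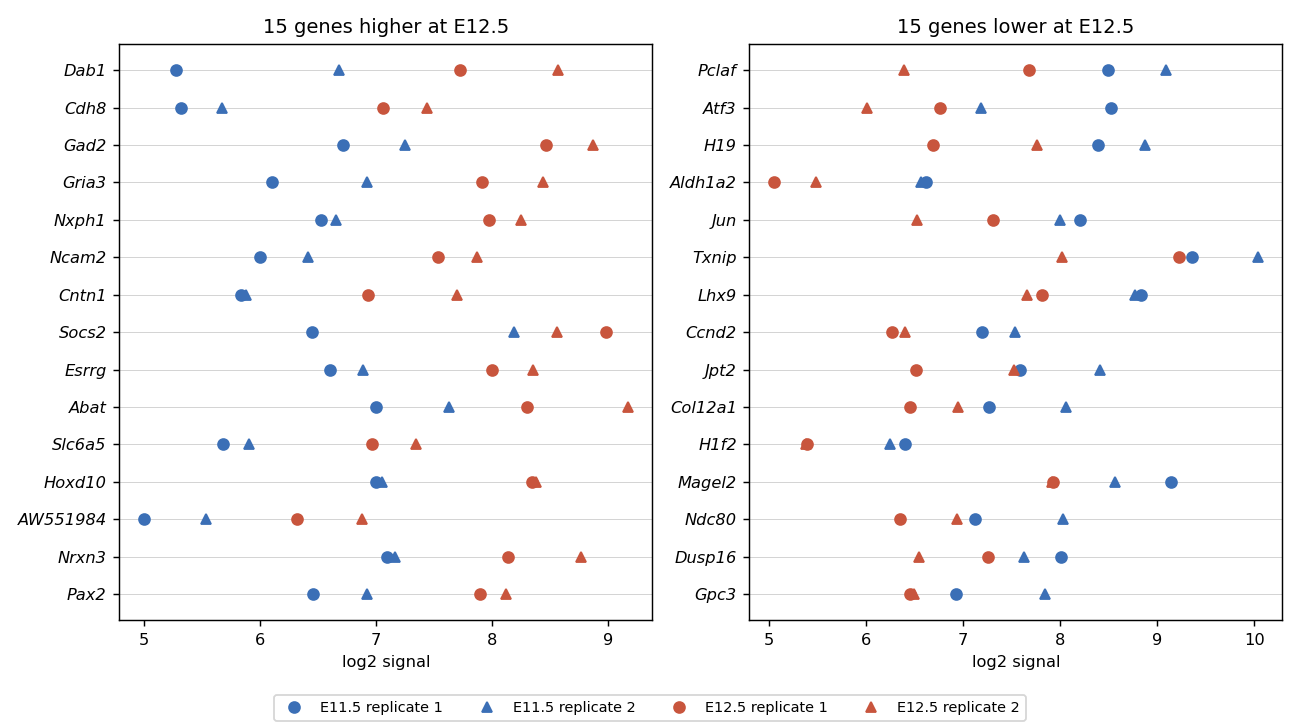
Log2 signal (x axis) on each of the 4 arrays for the 15 named genes higher (left) and the 15 lower (right) at E12.5, ordered by difference; blue for E11.5, red for E12.5, circles for replicate 1 and triangles for replicate 2. Red and blue symbols of a gene do not interleave, since the genes were chosen for this, and the gap is widest for *Cdh8*, *Nxph1* and *Hoxd10*.

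Genes of DNA replication were lower as a list. All 24 measured had a mean difference below 0, 14 (58.3%) were lower on both arrays and 0 higher, against 11.9% and 8.51% of all genes, and the median was -0.49. *Mcm3*, of the replicative helicase, gave 7.23 and 7.81 at E11.5 against 6.40 and 6.91 at E12.5 (-0.87 ± 0.32). *Uhrf1*, which carries DNA methylation through replication, gave 8.4 and 8.85 against 7.76 and 7.76 (-0.87 ± 0.27). *Mcm5* and *Mcm6*, of the same helicase, and *Pola1*, the catalytic subunit of polymerase alpha, were lower on both arrays, with differences of -0.58, -0.61 and -0.62, while *Mcm4* overlapped. Leaving out each array gave medians from -0.69 to -0.30, the latter without E11.5 replicate 2. All 26 measured mitosis genes also had a mean below 0, 8 (30.8%) were lower on both arrays and 0 higher, and the median was -0.41. Between same-numbered arrays the median was -0.17 for replicate 1 and -0.67 for replicate 2. Leaving out 1 array sets 1 replicate number against both, and the median then depended on the array. It was -0.90 without E11.5 replicate 1 and 0.01 without E11.5 replicate 2, the array with the highest mean signal of the list (7.75, against 6.88 on E11.5 replicate 1, 6.68 on E12.5 replicate 1 and 7.05 on E12.5 replicate 2). *Bub1* and *Aurkb*, of the spindle checkpoint and the chromosomal passenger complex, were nevertheless lower on both arrays, at -0.87 ± 0.37 and -0.66 ± 0.29. *Mki67*, *Top2a*, *Ccna2* and *Kif11* overlapped.

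Promoters are shown for letters known to bind cell cycle regulators, in the replication genes and the mitosis genes with the lowest differences among those above the detection limit whose promoter holds the letters. They are RefSeq windows of 300 bases on GRCm38.p6 (250 before and 50 after the start site). Genes of a single chromosome were left out of this choice, so those shown need not have the lowest differences of all. The E2F site was searched as TTTCGCGC or TTTGGCGC and the cell cycle homology region (CHR) as TTTGAA, each on both strands; neither motif holds the other. Capitals mark the match.
Mcm3, E2F letters, chr1:20820263-20820562, minus strand: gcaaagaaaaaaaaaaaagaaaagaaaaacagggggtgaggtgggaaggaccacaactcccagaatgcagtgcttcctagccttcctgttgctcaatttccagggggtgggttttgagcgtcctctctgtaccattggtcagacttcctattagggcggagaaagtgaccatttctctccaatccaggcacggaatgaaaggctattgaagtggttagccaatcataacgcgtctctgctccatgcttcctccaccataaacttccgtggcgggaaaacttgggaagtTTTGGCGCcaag
Uhrf1, E2F letters, chr17:56304063-56304362, plus strand: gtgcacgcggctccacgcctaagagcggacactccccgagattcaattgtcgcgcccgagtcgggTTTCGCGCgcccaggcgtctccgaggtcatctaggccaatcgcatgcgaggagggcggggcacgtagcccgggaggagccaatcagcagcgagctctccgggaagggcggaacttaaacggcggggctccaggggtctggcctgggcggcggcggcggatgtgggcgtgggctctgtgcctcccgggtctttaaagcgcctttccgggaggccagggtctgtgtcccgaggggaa
Ndc80, CHR letters on the opposite strand, chr17:71526808-71527107, minus strand: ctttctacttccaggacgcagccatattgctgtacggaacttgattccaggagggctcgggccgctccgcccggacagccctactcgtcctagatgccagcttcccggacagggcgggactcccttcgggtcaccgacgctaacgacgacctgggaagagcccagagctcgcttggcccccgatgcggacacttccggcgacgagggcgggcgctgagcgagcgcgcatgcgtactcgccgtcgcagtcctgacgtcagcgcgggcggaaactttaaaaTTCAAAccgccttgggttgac
Prc1, CHR letters, chr7:80294201-80294500, plus strand: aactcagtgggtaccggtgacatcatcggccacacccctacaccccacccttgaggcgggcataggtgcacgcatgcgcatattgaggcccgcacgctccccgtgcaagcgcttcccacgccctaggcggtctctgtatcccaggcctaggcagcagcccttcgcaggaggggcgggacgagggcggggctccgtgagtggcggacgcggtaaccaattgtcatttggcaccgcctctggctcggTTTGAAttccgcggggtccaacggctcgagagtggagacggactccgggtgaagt
A gene was counted if any of its promoter windows held the letters. The E2F letters were in 7 of 20 replication genes with a promoter in the table (35.0%) and in 1 of 22 mitosis genes (4.55%). They were in 1.45% of the array's genes with a promoter and in 0.929% of all 27025 genes with a promoter. The CHR letters were in 17 of 22 mitosis genes (77.3%), in 3 of 20 replication genes (15%), in 16.9% of the array's genes and in 20.2% of all genes with a promoter. Among progenitor genes the shares were 0 of 24 and 29.2%. A match describes the letters and is not a measured binding site. *Prc1*, which bundles the central spindle, gave 7.50 and 8.36 at E11.5 against 7.13 and 7.58 at E12.5, with groups that overlapped.

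Of 30 measured progenitor genes, 12 (40%) were lower on both arrays and 1 (3.33%) higher, against 11.9% and 8.51% of all genes. The median was -0.17. *Olig3*, which specifies the dorsalmost progenitors, gave 9.41 and 9.33 at E11.5 against 8.36 and 8.67 at E12.5 (-0.86 ± 0.25). *Nes*, an intermediate filament of neural progenitors, gave 6.66 and 7.20 against 6.23 and 6.45 (-0.59 ± 0.29), and *Pax6* gave 7.0 and 7.66 against 6.80 and 6.78 (-0.54 ± 0.30). *Sox2* was also lower on both arrays, by less, at 9.12 and 9.58 against 9.10 and 9.0, with groups 0.02 apart. *Pax3*, *Pax7*, *Notch1* and *Hes5* overlapped, so the separation seen for *Olig3* was not seen for these dorsal and Notch pathway genes. Of 19 proneural and Notch genes, 2 were higher on both arrays and 3 lower, near the background. Among 25 gliogenic and glial genes, 3 (12%) were higher on both arrays and 3 (12%) lower, near the background. The mean difference was above 0 for 13 of them and below 0 for 12. *Sox9*, which promotes gliogenesis, had a difference of -0.44 ± 0.24 and *Fabp7* one of -0.20 ± 0.24. *Nfib* had the highest of the list, 1.08 ± 0.37.

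Signals from the roof plate, which pattern the dorsal cord, were lower or overlapped. Of 13 measured, 5 (38.5%) were lower on both arrays and 0 higher, against 11.9% and 8.51% of all genes. Only 4 of the 13 were above the detection limit. *Rspo3*, a secreted enhancer of Wnt signalling, gave 6.63 and 6.69 at E11.5 against 5.78 and 6.10 at E12.5 (-0.72 ± 0.25), and *Gdf7*, a BMP family ligand of the roof plate, had a difference of -0.33 ± 0.25. *Wnt1*, the gene whose control elements drive Cre here, gave 5.67 and 6.2 against 5.54 and 5.24 and had a mean over the 4 arrays below the detection limit. The median of -0.14 was 0.02 without E12.5 replicate 2. Between same-numbered arrays it was -0.12 for replicate 1 and -0.12 for replicate 2. Of 13 retinoic acid genes 2 (15.4%) were lower on both arrays and 0 higher, near the 11.9% of all genes. Only 5 of these 13 were above the limit. *Aldh1a2*, which makes retinoic acid, was at 6.62 and 6.57 and then at 5.05 and 5.48 (-1.33 ± 0.27). Both E12.5 signals lay below the limit of 5.80, and its bound by that limit was 1.73-fold lower. In contrast, *Crabp1*, the retinoic acid binding protein of young dorsal neurons, was at 11.71 and 11.75 and then at 11.58 and 11.81 and overlapped.

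Adhesion molecules of axons were mostly higher. Of 20 immunoglobulin family members, 11 (55.0%) were higher on both arrays and 1 (5%) lower, against 8.51% and 11.9% of all genes. The median was 0.33. *Cntn1*, a GPI-anchored contactin, gave 5.84 and 5.88 at E11.5 against 6.93 and 7.70 at E12.5 (1.46 ± 0.32), and *Ncam2* gave 6.0 and 6.42 against 7.53 and 7.88 (1.49 ± 0.28). *Chl1* and *Ntm*, of the L1 and IgLON families, were higher on both arrays by 0.71 and 0.83, while *Nrcam* and *Cntn2*, an early commissural axon marker, overlapped at differences of 0.0028 and 0.09. The list's median was 0.14 on the replicate 1 arrays and 0.53 on the replicate 2 arrays, and it was 0.52 without E12.5 replicate 1 and 0.19 without E12.5 replicate 2. Cadherins differed among themselves, with 5 of 17 (29.4%) higher on both arrays and 1 (5.88%) lower. *Cdh8* gave 5.32 and 5.67 against 7.06 and 7.44 (1.75 ± 0.28). Both of its E11.5 signals lay below the limit of 5.80, and its bound by that limit was 2.73-fold higher. *Cdh6* gave 7.80 and 7.68 against 7.03 and 7.28 (-0.58 ± 0.25). Both sets of groups were separated, in opposite directions.

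*Dab1*, the cytoplasmic adaptor of the reelin pathway, had the largest difference above the detection limit. It gave 5.28 and 6.68 at E11.5 against 7.73 and 8.57 at E12.5, so that the groups were separated although the E11.5 arrays were far apart (SD 0.99), and the difference was 2.17 ± 0.52. Its second, dimmer cluster gave 4.97 and 5.43 against 6.28 and 6.28 (1.08 ± 0.27). *Reln*, the secreted ligand of the same pathway, gave 7.77 and 8.03 against 8.55 and 9.05 (0.90 ± 0.28). Differences of guidance receptors were mostly small, with 9 of 35 (25.7%) higher on both arrays and 2 (5.71%) lower, against 8.51% and 11.9% of all genes. *Robo2*, a Slit receptor, gave 8.52 and 8.74 against 9.33 and 9.72 (0.89 ± 0.27), and *Robo1*, *Plxna2* and *Nrp1* were higher on both arrays by 0.55, 0.65 and 0.65. *Dcc*, the netrin receptor of commissural axons, overlapped at 10.96 and 10.90 against 10.79 and 11.30. The guidance cues had a median of -0.02 that turned to 0.02 under either scaling; *Sema3c* was the lowest above the limit, at -0.62 ± 0.27.

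Synaptic genes lay mostly on the higher side. Of 28 genes of vesicles and release, 15 (53.6%) were higher on both arrays and 0 lower, against 8.51% and 11.9% of all genes, with a median of 0.22. *Sv2a*, a vesicle membrane protein, gave 6.69 and 6.79 at E11.5 against 7.18 and 7.73 at E12.5 (0.72 ± 0.28), *Syt1*, the calcium sensor of release, had a difference of 0.49 ± 0.31, and *Snap25*, of the fusion machinery, one of 0.32 ± 0.26. The mean difference was above 0 for 24 of the 28 genes and below 0 for 4. Of 35 synaptic organizers and scaffolds, 19 (54.3%) were higher on both arrays and 2 (5.71%) lower. *Nxph1*, a secreted ligand of alpha-neurexins, gave 6.53 and 6.66 against 7.98 and 8.25 (1.52 ± 0.25), and *Nrxn3*, a neurexin, gave 7.10 and 7.17 against 8.14 and 8.77 (1.32 ± 0.30). *Cbln1*, a secreted ligand that bridges neurexins to delta glutamate receptors, gave 6.85 and 7.0 against 7.29 and 8.19 (0.81 ± 0.35). Its groups did not overlap, and the replicate 1 arrays differed by 0.44 and the replicate 2 arrays by 1.19.

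Receptors for glutamate and those for GABA and glycine had more members on the higher side than the 8.51% of all genes. Of 17 glutamate receptor genes 9 (52.9%) were higher on both arrays and 0 lower, although only 5 of the 17 were above the detection limit. *Gria3*, an AMPA receptor subunit, gave 6.11 and 6.92 at E11.5 against 7.91 and 8.44 at E12.5 (1.66 ± 0.36), and all 5 of those above the limit, *Gria1*, *Gria2*, *Gria3*, *Gria4* and *Grik2*, were higher on both arrays. *Gria1* was below the limit at E11.5 and counts as above it only through its E12.5 signals, so this tally is partly set by the filter. Its bound was 0.48. Of 11 GABA and glycine receptor genes 5 were higher on both arrays and 0 lower, 4 of the 11 being above the limit. *Glra2*, the fetal glycine receptor subunit, gave 4.74 and 4.70 against 6.01 and 6.63 (1.60 ± 0.29), with a bound of 0.52 since its E11.5 signals lay below the limit, while *Glra1*, the adult one, overlapped. Of 18 potassium channel genes 6 (33.3%) were higher on both arrays and 0 lower, 4 of the 18 being above the limit. Of 23 sodium and calcium channel genes 10 were higher on both arrays and 1 lower, led by the auxiliary subunits *Cacna2d3* (1.14 ± 0.28), *Scn3b* (0.98 ± 0.37) and *Cacng2* (0.87 ± 0.34); *Cacna2d3* was below the limit at E11.5 and has a bound of 0.63. The pore-forming *Scn3a* and *Cacna1b* overlapped. Among peptides, *Sst* gave 7.56 and 7.47 against 8.16 and 8.82 (0.97 ± 0.30) and *Npy* 6.17 and 6.10 against 6.76 and 7.14 (0.82 ± 0.26). In all, 4 of 27 (14.8%) were higher on both arrays and 2 (7.41%) lower, against 8.51% and 11.9% of all genes. Only 6 of the 27 were above the limit.

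Cytoskeletal and RNA-binding genes of neurons also had medians above 0, of 0.24 and 0.23. Of 27 cytoskeletal genes 12 (44.4%) were higher on both arrays and 1 (3.7%) lower, against 8.51% and 11.9% of all genes. Their median was 0.51 without E12.5 replicate 1 and 0.0053 without E12.5 replicate 2. *Tubb2a*, a neuronal tubulin, gave 9.38 and 9.37 at E11.5 against 9.78 and 10.37 at E12.5, and *Nefm*, of the neurofilament, was lower on both arrays at -0.14 ± 0.24. Of 19 RNA-binding genes 10 were higher on both arrays and 2 lower. *Rbfox1* (0.72 ± 0.25), *Elavl3* (0.45 ± 0.24) and *Rbfox3* (0.45 ± 0.24) promote neuronal splicing or mark neurons, and *Ptbp1*, the splicing repressor of progenitors, had a difference of -0.33 ± 0.25. Its groups did not overlap, at 6.34 and 6.63 against 6.10 and 6.2.

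Hox genes, which set position along the cord, were counted by their place in the Hox clusters. Of 12 measured in groups 1 to 5, 0 were higher on both arrays and 2 (16.7%) lower, near the 11.9% of all genes. Their median was -0.20, and 0.01 without E12.5 replicate 2. Between same-numbered arrays it was -0.06 for replicate 1 and -0.20 for replicate 2. Of 20 in groups 6 to 13, 7 (35%) were higher on both arrays and 3 (15%) lower, against 8.51% and 11.9% of all genes. *Hoxd10*, of the lumbar cord, gave 7.0 and 7.05 at E11.5 against 8.35 and 8.38 at E12.5, a difference of 1.34 ± 0.24 with nearly equal arrays in each stage. *Hoxc10* (0.75 ± 0.29, with a bound of 0.51), *Hoxd9* (0.53 ± 0.26) and *Hoxb8* (0.52 ± 0.26) were also higher on both arrays. *Hoxa10* and *Hoxc9* overlapped, at 0.01 and 0.05. The level of the cord that was dissected is not given in the labels and was not tested.

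**Figure D4:**
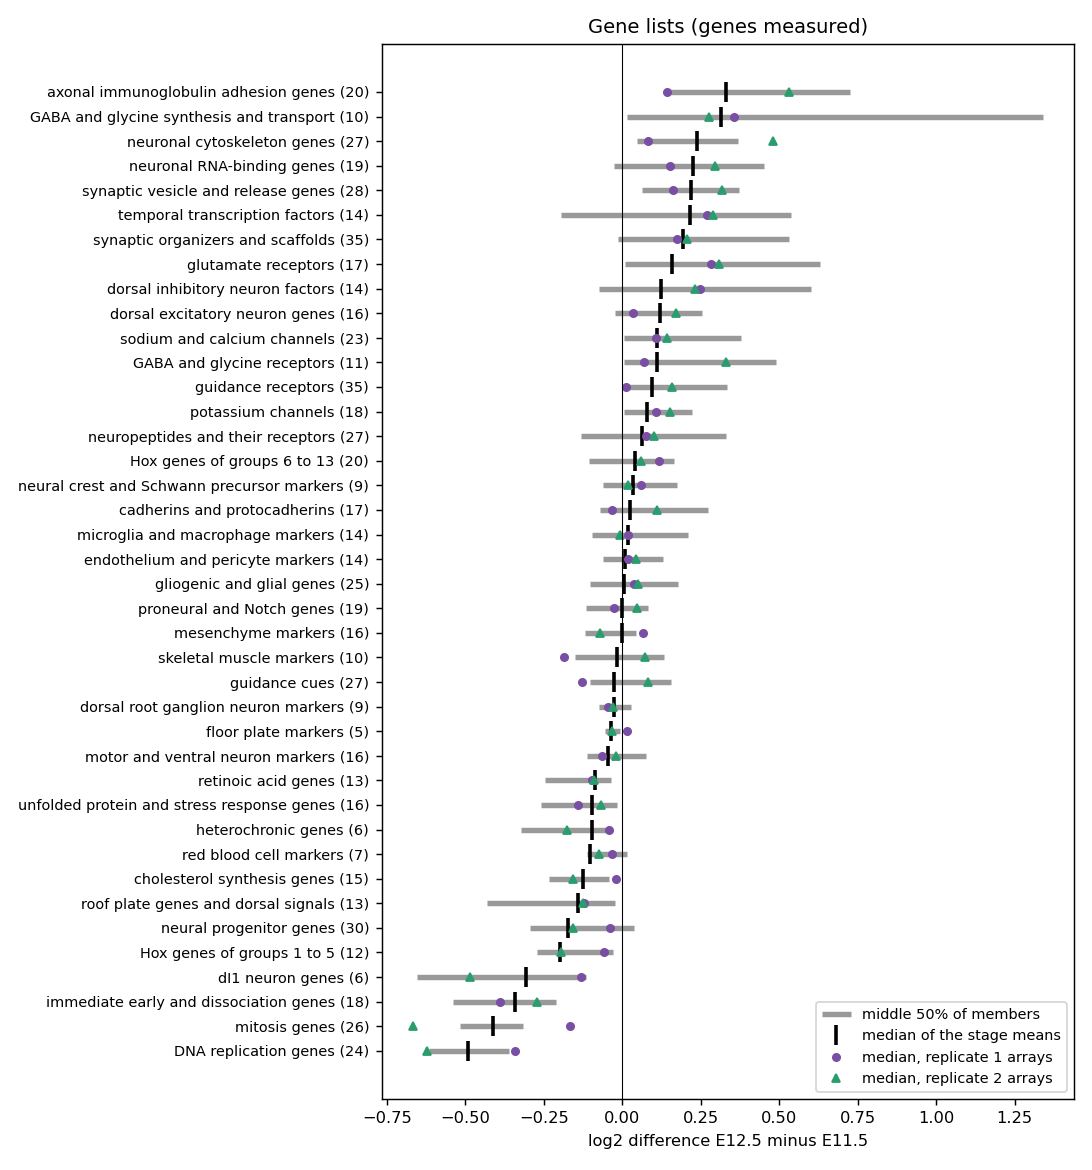
Log2 difference E12.5 minus E11.5 (x axis) in each of the 40 gene lists (y axis, number of genes measured in brackets): black ticks are medians of the difference between stage means, grey bars span the middle 50% of members, circles and triangles are the medians for the replicate 1 and the replicate 2 arrays. The lists of axonal adhesion, inhibitory transmission and cytoskeleton lie highest and those of DNA replication, mitosis and immediate early genes lowest, with medians from 0.33 to -0.49.

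Immediate early genes, many of which respond within minutes to stimuli that include tissue dissociation, were lower. Of 18 measured, 8 (44.4%) were lower on both arrays and 0 higher, against 11.9% and 8.51% of all genes. Above the detection limit were 8 of the 18. The median was -0.34, with -0.17 without E12.5 replicate 2. *Atf3* gave 8.53 and 7.19 at E11.5 against 6.76 and 6.01 at E12.5 (-1.47 ± 0.49), and *Jun* gave 8.20 and 7.99 against 7.31 and 6.52 (-1.18 ± 0.33). *Klf6* and *Dusp1* were lower on both arrays too, while *Fos* and *Egr1* overlapped. Their mean signal was 6.28 and 5.88 on the E11.5 arrays and 5.83 and 5.49 on the E12.5 arrays, and their part in the other differences was not tested. Of 16 unfolded protein and stress response genes 5 (31.2%) were lower on both arrays and 0 higher, led by *Asns*, which makes asparagine (-0.80 ± 0.29). Of 15 cholesterol synthesis genes 3 (20%) were lower on both arrays and 0 higher, against 11.9% and 8.51% of all genes, and of 6 heterochronic genes, which time developmental transitions, 2 were lower and 0 higher; *Igf2bp1*, an RNA-binding protein of early progenitors, gave 7.65 and 8.07 against 7.17 and 7.17 (-0.69 ± 0.26).

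Of the other cells the sort could hold, neural crest derivatives carry the same reporter. Of 9 measured markers 1 was higher on both arrays, *Kit*, which neurons also express, at 6.63 and 7.03 against 7.64 and 8.27 (1.13 ± 0.31). *Sox10*, which defines crest and Schwann precursors, gave 6.18 and 5.83 against 6.64 and 5.80 and overlapped. The mean signal of the list was 5.38 and 5.23 at E11.5 against 5.54 and 5.32 at E12.5. Markers of endothelium, microglia, mesenchyme, muscle and red blood cells had list means between 4.27 and 5.11 on the 4 arrays, below the detection limit. Single members above the limit were 1 endothelial, 2 microglial, 2 mesenchymal, 1 muscle and 2 red blood cell markers. Higher or lower on both arrays were 1 and 0 of 14 endothelial, 0 and 0 of 14 microglial, 0 and 2 of 16 mesenchymal, 0 and 0 of 10 muscle and 0 and 1 of 7 red blood cell markers. The same counts were 0 and 3 of 9 for dorsal root ganglion neurons, 0 and 2 of 16 for motor and ventral neurons and 0 and 0 of 5 for floor plate.

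The first day of the series, E11.5 minus E10.5, is set beside the second for the named genes; the 2 differences share the E11.5 arrays, and E10.5 replicate 1 stood apart, with a mean correlation of 0.890 with the other arrays. First-day differences ran from -0.20 to 1.18 over the 15 higher genes and from -0.87 to 0.95 over the 15 lower genes. *Gria3* and *Cdh8* had first-day differences of 1.18 and 0.91 before second-day differences of 1.66 and 1.75. *Pax2* had 0.0050 on the first day (0.50 without E10.5 replicate 1) and *Dab1* -0.20 (0.02). *Lhx9* had 0.34 on the first day (0.44 without that array) and -1.07 on the second. *Ccnd2* had -0.87 and then -1.03. The difference between the days was tested with limma over all 6 arrays. It called 0 of 23332 clusters at an adjusted p under 0.05, and 175 (0.750%) had an unadjusted p under 0.05, so no difference is shown to belong to the second day.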

How the data were processed

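Affymetrix mouse exon arrays were run on RNA of sorted GFP+ dorsal spinal cord cells at 3 stages, with 2 arrays a stage, and the E11.5 and E12.5 arrays were compared. The deposited values are the authors' log2 signals for 23332 transcript clusters. According to the submitters' processing notes these were made with oligo, whose version is not given in the sources used here, on mm9; the normalization method is not given either. The values were used as deposited. The platform's table gave 1 gene for 14996 clusters and several for 1019; 7317 are unnamed here. Signals of different genes were not compared as levels.

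The E12.5 minus E11.5 contrast was fitted with limma 3.58.1 in R 4.3.3 (a mean per stage, moderated variances, 2 residual and 4.43 prior degrees of freedom), with Benjamini-Hochberg adjustment over all clusters at 0.05. Genes named were the 15 with the largest difference in each direction above the detection limit whose groups did not overlap, and members of 40 lists of 813 genes, of which 693 were measured; lists were described by counts and medians. The members and lists were chosen with earlier results of these data known, and imprinted genes were listed after their values were seen. The reported fit, which has no replicate block, was run on simulated data of 23332 clusters for this comparison. Sets of 50 clusters were changed by 1, 2, 3 and 4 on the log2 scale. With a shared replicate difference the fit recovered 1, 17, 44 and 48 of 50, with 0 false calls. With independent spread it recovered 4, 46, 50 and 50, with 22 false calls. Recovery with a replicate block is not given here. Alternatives were a replicate block, all 6 arrays, an intensity trend, an ordinary t-test, quantile normalization, centring, cluster filters, and leaving out each array. Promoters were searched and figures drawn in Python 3.11.15 with pandas 2.3.3 and matplotlib 3.10.9.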

Additional observations from a re-analysis of the deposited data

How the results depend on the processing

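Over the fits with a replicate block, all 6 arrays, an intensity trend, quantile normalization, centring, clusters above the detection limit or clusters naming 1 gene, the number of clusters past the adjusted threshold stayed at 0. An ordinary t-test without moderation passed 1 cluster, an unnamed one with identical values within both stages, and 0 without it. Unadjusted p-values of the reported fit passed 560. Leaving out 1 array at a time gave between 5 and 98 clusters: 5 without E11.5 replicate 1, 12 without E11.5 replicate 2, 18 without E12.5 replicate 1 and 98 without E12.5 replicate 2. In these fits the lone array is assumed to vary like the other stage, and 1 replicate number is set against both. Of 390 alternative values of the 30 named genes 0 changed sign and 7 passed the threshold, all of them with an array left out: *Atf3*, *Dab1* and *Socs2* without E11.5 replicate 2, *Cdh8*, *Dab1* and *Pclaf* without E12.5 replicate 1, and *H19* without E12.5 replicate 2. Quantile normalization gave 2385 genes higher on both E12.5 arrays. Of 40 list medians, 34 kept their sign under both scalings and 20 in all settings run.

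The deviations of same-numbered arrays correlated at 0.484 over clusters and at 0.622 over clusters naming 1 gene, and E10.5 gave 0.455 with E11.5 and 0.469 with E12.5. The labels do not say what a number marks and there are 2 numbers, so pairing was not assumed; with the replicate block the number at an unadjusted p under 0.05 was 1605 and the adjusted count 0, and among clusters naming 1 gene the smallest adjusted p was 0.0905 (*Cdh8*, *Gad2*, *Dab1*, *Gria3*, *Ncam2* and *Nxph1*). With 2 arrays a stage, no gene's difference of any size, *Dab1* at 2.17 included, passed the adjusted threshold in the reported fit, and low signals lie near those of olfactory receptors.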

Other observations

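Imprinted genes, listed after *H19* and *Magel2* had been seen among the lower genes, lay on both sides of 0. Of 27 measured, 9 (33.3%) were lower on both E12.5 arrays and 3 (11.1%) higher, against 11.9% and 8.51% of all genes, and the median was -0.02. *H19*, a long non-coding RNA, gave 8.39 and 8.88 at E11.5 against 6.69 and 7.76 at E12.5, a difference of -1.40 ± 0.40 (SE), and *Igf2*, the growth factor gene next to it, gave 6.65 and 6.55 against 6.24 and 6.06. *Magel2* gave 9.14 and 8.57 against 7.93 and 7.92, while *Ndn*, its neighbour, overlapped at 7.93 and 8.26 against 8.09 and 8.37. *Peg3* was lower on both arrays at 8.91 and 8.60 against 8.41 and 8.28, and *Usp29*, which shares its promoter region, was higher at 6.12 and 6.40 against 7.08 and 7.86.

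Among the 839 olfactory, vomeronasal, trace amine and taste receptor clusters, 44 were lower on both arrays and 40 higher. Of all genes, 11.9% were lower on both arrays and 8.51% higher. The number of them with a signal over 6 was 55 and 14 on the E11.5 arrays and 92 and 16 on the E12.5 arrays, higher on both replicate 1 arrays.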
